A study of Homo sapiens with 21 samples.

Results

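Doxycycline-induced H9 cells collected 12 h after induction were compared with the day 10 cells from which the induction started, across all expressed genes. The comparison used 6 of the 21 RNA-seq libraries of the series, chosen by their labels, and 19655 of 61268 counted features had enough reads to be tested. H9 is an established human embryonic stem cell line. Here it carries a GSX2 transgene, wild type in sequence and tagged with 2xFLAG, under the doxycycline-responsive TRE3G promoter, and every group in the series carries this transgene. The Dox 12 h group (n = 3) received 100 ng/mL doxycycline for 12 h from day 10 of a differentiation towards cells like those of the lateral ganglionic eminence (LGE). The NoDox 12 h group (n = 3) was cultured for the same 12 h without the drug, and the Day 10 group (n = 3) was collected at the start. The differentiation ran in Essential 6 medium with LDN193189, SB431542 and XAV939, then LDN193189 and SB431542, then IWP2 and Activin A. No group received doxycycline without carrying the transgene, so the action of the drug and that of the transgene cannot be told apart. Whether the 3 replicates of a group came from separate cultures is not stated in the labels. The p-values below therefore rest on the spread among these libraries, which may be technical.

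The LGE is the part of the embryonic ventral forebrain that gives rise to striatal projection neurons and to interneurons of the olfactory bulb. GSX2 is a homeodomain transcription factor of its progenitors. In mice it is required for LGE identity and keeps genes of the neighbouring pallium, the dorsal part of the forebrain, out of LGE progenitors. Homeodomain proteins commonly bind DNA sequences with a TAAT core.

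The transgene row of the count table gave 951, 932 and 745 CPM in the 3 Dox 12 h libraries (CPM, read counts scaled to the TMM-adjusted library total). It averaged 0.227 CPM in NoDox 12 h libraries and 0.309 CPM in Day 10 libraries, where it held between 5 and 7 reads a library. Induction was seen in all 3 Dox 12 h libraries, and both groups without drug stayed below 1 CPM. The rise over Day 10 was 11.47 ± 0.29 on the log2 scale (edgeR quasi-likelihood test, adjusted p = 9.65e-16; here and below ± after a log2 fold change is an approximate standard error of the fit). Reads assigned to the endogenous GSX2 gene (chromosome 4, 54099523 to 54102498) reached 277, 290 and 296 CPM in Dox 12 h libraries, against 10.6, 8.18 and 7.08 CPM in NoDox 12 h libraries and 12.2, 8.36 and 7.78 CPM in Day 10 libraries. GSX2 reads were 0.292 to 0.398 of the transgene reads in the Dox 12 h libraries. The gene and the transgene share coding sequence, so their reads are not separated. GSX1, the closest relative of GSX2 and a regulator in the same progenitors, had no read in any Dox 12 h library. It stood at 1.68, 1.19 and 1.36 CPM in NoDox 12 h libraries and at 1.2, 0.748 and 1.02 CPM in Day 10 libraries. Taking 3 counts over the Dox 12 h group as the floor, GSX1 was at least 24.2-fold lower in Dox 12 h than in Day 10 libraries and at least 34.5-fold lower than in NoDox 12 h libraries.

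Library totals were 14439089 to 24517717 reads in the 9 libraries of the 3 groups. Dox 12 h replicate 3 and Day 10 replicate 1 stood apart from their replicates, since their read counts differed from those of their partners by 17.4 to 27.8 and by 11.5 to 15.6 (chi-square divided by its degrees of freedom, 1 for pure sampling noise), while the other pairs gave 2.34 to 5.79. Without both, 4640 genes were higher (1209 at least 2-fold) and 4700 lower (1070) in Dox 12 h than in Day 10 cells, and the class totals are given further on. On a principal component analysis of 14690 genes, the first component (61.6% of the variance) placed Dox 12 h libraries at 43.1 to 45.8 and all others between -25.8 and -19.7. The second component (20.6%) placed NoDox 12 h libraries at 20.5 to 24.8, Dox 12 h libraries at -4.5 to 2.7 and Day 10 libraries at -26.4 to -18.3. TMM scaling factors were 1.12 to 1.14 in Dox 12 h libraries and 0.984 to 1.02 in the other 6. With library totals alone the median of all genes moved by 0.18 on the log2 scale, and 73% of the calls against Day 10 were then higher. Of the 9 markers of telencephalic progenitors without GSX2, the summed level was 2557 to 2834 CPM in Dox 12 h, 6612 to 6672 CPM in NoDox 12 h and 5899 to 6125 CPM in Day 10 libraries. The cell line is of embryonic stem cells, but 6 of 10 listed pluripotency markers were below 0.5 CPM in all 9 libraries. They were the factors POU5F1, NANOG, PRDM14, UTF1 and TDGF1 and the RNA ESRG. The 10 together still summed to 209 to 231 CPM in Dox 12 h, 318 to 342 CPM in NoDox 12 h and 318 to 339 CPM in Day 10 libraries. The labelled cell type names the line, and the state of these cells was not tested beyond such markers.

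Against Day 10, 4807 genes were higher in Dox 12 h cells and 4717 were lower at an adjusted p below 0.05, which is 24.5% and 24% of the genes tested and 48.5% together. At least 2-fold changes were found in 1286 genes that rose (6.54%) and 1042 that fell (5.3%). Over the same 12 h without drug, 3051 genes (15.5%) were higher in NoDox 12 h than in Day 10 cells and 3202 (16.3%) were lower, 31.8% together, of which 470 (2.39%) and 314 (1.6%) changed at least 2-fold. Set against the control of the same hour, 3898 genes (19.8%) were higher in Dox 12 h than in NoDox 12 h cells and 3912 (19.9%) were lower, 39.7% together, with 1092 (5.56%) and 930 (4.73%) at least 2-fold. Comparisons against Day 10 share its 3 libraries, and both comparisons of Dox 12 h cells share theirs, so they are not independent of each other.

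Each gene was placed by its position against both references. A loss was lower in Dox 12 h cells than in Day 10 and than in NoDox 12 h cells, each at an adjusted p below 0.05, and a gain was higher than both. Losses numbered 2667 (13.6% of the genes tested) and gains 2483 (12.6%), and 636 losses and 609 gains were at least 2-fold in both comparisons (3.24% and 3.1%). A shared movement, in which Dox 12 h and NoDox 12 h cells both differed from Day 10 in the same direction with no call between them, was found for 1260 rises (6.41%) and 1176 falls (5.98%). In a further 189 rises (0.962%) and 103 falls (0.524%) the Dox 12 h cells lay between Day 10 and NoDox 12 h cells and differed from both. Held genes are those that moved in NoDox 12 h cells while Dox 12 h cells passed no test against Day 10 and differed from NoDox 12 h cells. They numbered 621 where the control rose (3.16%) and 714 where it fell (3.63%). Fewer were at least 2-fold in both comparisons that define the class. These were 67 (0.341%) and 87 (0.443%) held genes, 184 shared rises (0.936%) and 74 shared falls (0.376%).

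Of the 4717 genes that fell in Dox 12 h against Day 10 cells, 56.5% were losses by this rule and 24.9% were shared falls. A further 771 (16.3%) had no call between Dox 12 h and NoDox 12 h cells, nor between NoDox 12 h and Day 10 cells. Those genes could not be assigned to a loss or to a movement of the control. A called fall in the control was also found in 567 of the losses and in the 103 partial falls. Among the 1042 that fell at least 2-fold, 819 (78.6%) were losses, 112 were shared falls and 111 (10.7%) had neither call. The control had a called fall in 220 of these 819 losses. Of the 4807 genes that rose, 51.7% were gains, 26.2% were shared rises and 875 (18.2%) had neither call and could likewise not be assigned. The 1286 rises of at least 2-fold included 814 gains (63.3%), 234 shared rises (18.2%) and 232 (18%) with neither call. The control had a called rise in 310 of the 2483 gains and in 129 of these 814. Without Dox 12 h replicate 3 and Day 10 replicate 1, the counts were 2857 losses (646 at least 2-fold), 2488 gains (596 at least 2-fold), 755 and 791 held genes, and 1248 shared rises and 1193 shared falls. Requiring the change to exceed 2-fold in the test itself left 304 genes higher and 496 lower in Dox 12 h than in Day 10 cells, with 352 losses and 125 gains.

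**Figure D1:**
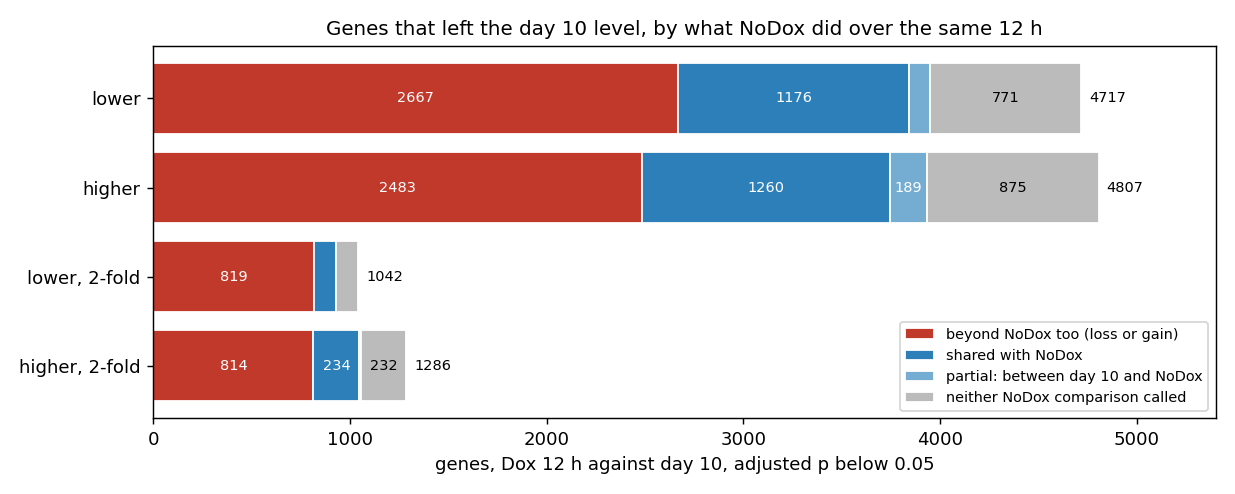
Genes called in Dox 12 h against Day 10 cells, split by class, for all calls and for calls of at least 2-fold (horizontal axis: number of genes, edgeR quasi-likelihood test, adjusted p below 0.05). Of the 1042 genes that fell at least 2-fold, 819 were also lower than in NoDox 12 h cells, and of the 1286 that rose, 814 were also higher.

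The 12 largest falls by the naming rule included the transcription factor genes EOMES, SOX21, EMX2, UNCX and NEUROG1. LINC02944, a long intergenic non-coding RNA (chromosome 10, 118241468 to 118267710), had 0.0358, 0.115 and 0.102 CPM (6 reads in all) in Dox 12 h libraries, against 6.78, 9.96 and 7.61 CPM in NoDox 12 h libraries and 7.4, 9.11 and 9.28 CPM in Day 10 libraries. The fall against Day 10 was -6.63 ± 0.33 on the log2 scale (adjusted p = 4.99e-16), or 99.3-fold, and the control did not move past the threshold (-0.09). EOMES, a T-box factor of intermediate progenitors in the cortex, had 1.75, 1.42 and 1.33 CPM in Dox 12 h libraries, against 82.9, 61.5 and 59.2 CPM in NoDox 12 h and 82.9, 71.6 and 74.9 CPM in Day 10 libraries. Every library of both references was above every Dox 12 h library for these genes, which the rule for naming losses required. EMX2, a homeodomain factor of dorsal telencephalic progenitors, had 9.3, 8.93 and 10.4 CPM in Dox 12 h libraries, against 270, 233 and 238 CPM in NoDox 12 h and 309, 279 and 266 CPM in Day 10 libraries. Its fall was -4.90 ± 0.11 (adjusted p = 3.62e-22). EMX2OS, which overlaps EMX2 on the opposite strand, fell by 4.44 ± 0.12, and since the strand setting of the counting is not given in the sources used here, reads of the overlapping stretch may be split between the pair.

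SOX21, a SOX factor of neural progenitors, had 3.76, 4.62 and 5.2 CPM in Dox 12 h libraries, against 103, 122 and 114 CPM in NoDox 12 h and 202, 178 and 177 CPM in Day 10 libraries. Its log2 fold changes were -5.37 ± 0.12 in Dox 12 h and -0.71 in NoDox 12 h cells against Day 10, so part of the distance was also covered without the drug. EDNRB, the endothelin receptor type B, had 2.4, 1.62 and 2.5 CPM in Dox 12 h libraries, against 86.3, 95.7 and 79.2 CPM in NoDox 12 h and 76.4, 79.5 and 83.3 CPM in Day 10 libraries. EDNRB fell by 5.21 ± 0.13, with no call in the control. SHISA2, which in frogs encodes an antagonist of FGF and WNT receptor maturation, had 9.98, 9.39 and 7.8 CPM in Dox 12 h libraries, against 212, 214 and 204 CPM in NoDox 12 h and 244, 237 and 246 CPM in Day 10 libraries. NXPH1, a secreted ligand of neurexins, had 8 reads over the 3 Dox 12 h libraries (0.143, 0.0385 and 0.153 CPM), against 4.74, 3.24 and 3.56 CPM in NoDox 12 h and 7.33, 5.5 and 5.35 CPM in Day 10 libraries.

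UNCX, NEUROG1 and PCDH8 moved in opposite directions in the induced cells and in their control. UNCX, a paired-type homeobox gene, had 0.358, 0.577 and 0.51 CPM in Dox 12 h libraries, against 21.9, 16.7 and 15.8 CPM in NoDox 12 h and 11.6, 9.77 and 12.4 CPM in Day 10 libraries. NEUROG1, a basic helix-loop-helix factor that starts neurogenesis, had 0.715, 0.423 and 0.255 CPM in Dox 12 h libraries, against 23.1, 22.2 and 19.8 CPM in NoDox 12 h and 11.8, 9.42 and 10.6 CPM in Day 10 libraries. Against Day 10, UNCX fell by 4.54 ± 0.23 and NEUROG1 by 4.42 ± 0.22 in Dox 12 h cells, while NoDox 12 h cells rose by 0.68 and 1.04. PCDH8, a protocadherin, had 8 reads over the 3 Dox 12 h libraries, and 4.94, 6.95 and 8.92 CPM in NoDox 12 h against 1.69, 3.57 and 3.01 CPM in Day 10 libraries. Over all genes, 321 losses (1.63% of the genes tested) had a called rise in the control and 290 gains (1.48%) had a called fall, of which 27 and 10 were at least 2-fold in all 3 comparisons.

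**Figure D2:**
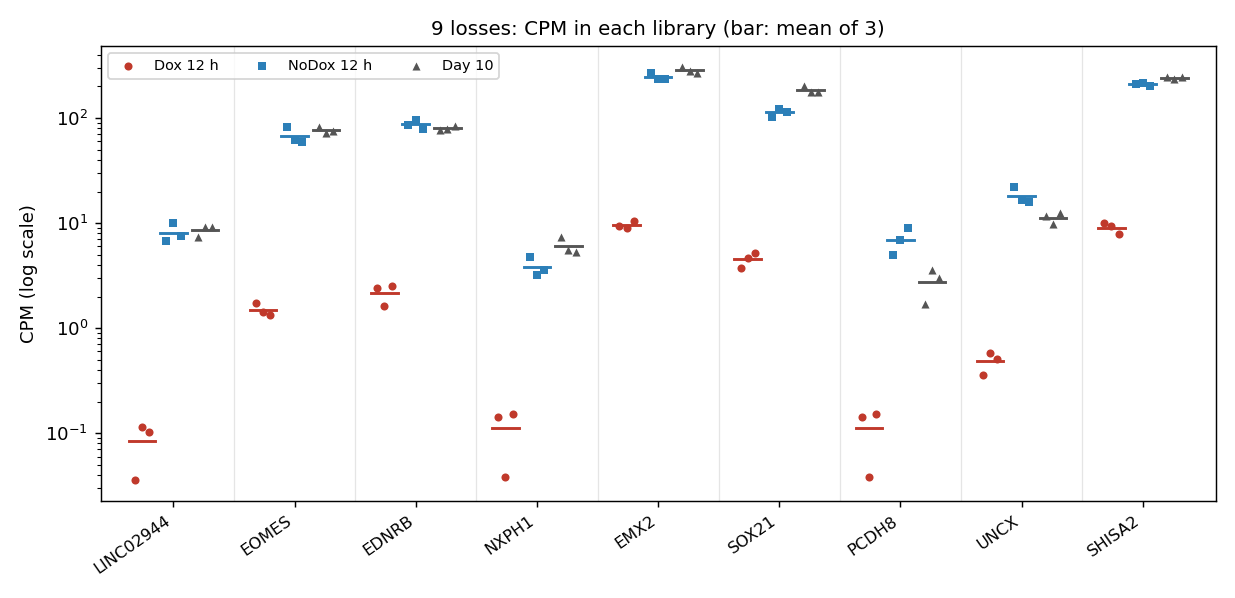
CPM in each library (vertical axis: log scale) of 9 of the 10 losses that ranked highest by the smaller of their changes against Day 10 and NoDox 12 h, bars marking means of 3, with Dox 12 h, NoDox 12 h and Day 10 libraries side by side. The ranking took only genes whose 3 Dox 12 h libraries lie below all 6 others.

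The promoters of 3 of the named genes are shown because their 250 bases before the start site hold TAATTA, a palindromic sequence with the TAAT core on both strands. The letters are from RefSeq (GRCh38.p14), 5′ to 3′ in the direction of the gene, with TAATTA in capitals. UNCX lies at chr7:1232622-1232871 on the + strand, with TAATTA starting 132 and 29 bases before the start site. NEUROG1 lies at chr5:135535965-135536214 on the - strand, with 1 match starting 201 bases before the start site. CCDC69, a coiled-coil gene that was among the largest gains, lies at chr5:151224093-151224342 on the - strand, with 1 match starting 236 bases before it.
UNCX: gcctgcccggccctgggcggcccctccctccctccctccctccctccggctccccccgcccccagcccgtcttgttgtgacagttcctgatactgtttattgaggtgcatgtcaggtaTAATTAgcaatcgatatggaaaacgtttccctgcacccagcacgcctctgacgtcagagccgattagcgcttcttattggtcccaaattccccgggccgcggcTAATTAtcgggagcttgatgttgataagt
NEUROG1: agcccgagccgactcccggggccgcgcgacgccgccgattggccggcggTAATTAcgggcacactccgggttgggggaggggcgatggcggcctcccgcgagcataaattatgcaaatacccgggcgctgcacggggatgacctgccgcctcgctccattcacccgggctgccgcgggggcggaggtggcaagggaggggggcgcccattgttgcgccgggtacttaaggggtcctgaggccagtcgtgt
CCDC69: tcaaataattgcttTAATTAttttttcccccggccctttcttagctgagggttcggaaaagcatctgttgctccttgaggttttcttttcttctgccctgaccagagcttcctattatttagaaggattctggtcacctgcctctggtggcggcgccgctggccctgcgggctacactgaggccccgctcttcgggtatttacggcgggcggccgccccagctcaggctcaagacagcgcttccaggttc

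EMX2 also held TAATTA, starting 30 bases before its start site. Of the 10 highest-ranked losses, 9 had a promoter entry and 2 (EMX2 and UNCX) held the motif, and of the 10 gains drawn further on, 8 had an entry and 1 (CCDC69) held it. Promoter entries were found for 410 of the 636 losses of at least 2-fold, and 24 of them (5.85%) held TAATTA. The share was 14 of 375 (3.73%) among gains of at least 2-fold, 96 of 4070 (2.36%) among genes called in no comparison, 267 of 12958 (2.06%) among all genes tested and 1227 of 27305 (4.49%) among all promoters of the table. Median GC content of these promoters was 61.2% in the losses, 66% in the gains, 64.8% in the genes tested and 58% in the whole table. The shorter TAAT on either strand was in 48% of the losses, 30.4% of the gains, 33.6% of the genes tested and 48.2% of all promoters. These are matches of letters and not binding sites, and the part of base composition in the differences was not tested.

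Losses were more abundant genes than gains. The 636 losses of at least 2-fold had a median level of 2.55 CPM in Dox 12 h, 11.3 CPM in NoDox 12 h and 10.1 CPM in Day 10 cells, and together they made up 13457 CPM in Dox 12 h, 44451 CPM in NoDox 12 h and 47299 CPM in Day 10 cells. Gains of at least 2-fold had a median of 1.73 CPM in Dox 12 h, 0.51 CPM in NoDox 12 h and 0.526 CPM in Day 10 cells, and summed to 3573 CPM in Dox 12 h, 839 CPM in NoDox 12 h and 884 CPM in Day 10 cells. All genes tested had a median between 15 and 15.4 CPM in the 3 groups. Median span in the genome was 36.2 kb for these losses, 22.8 kb for the gains and 27.1 kb for all genes tested. Of the 2-fold losses, 169 (26.6%) had another such loss as the next gene tested on one side, counting only neighbours that did not overlap, against 6.02% of all genes tested. Of the 2-fold gains, 107 (17.6%) had such a neighbour, against 6.24% of all genes tested. Chromosome 13, which carries SOX21, EDNRB, PCDH8, SHISA2 and GSX1, had 34 losses of at least 2-fold among 374 genes tested (9.09%), and chromosome 19 had 0.628%.

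Regulators of LGE progenitors mostly fell. Of 16 listed genes, 11 fell and GSX2 alone rose, with a median log2 fold change of -1.97 against 0.01 over all genes tested. For this list and those below, 24% of all genes tested fell and 24.5% rose in Dox 12 h against Day 10 cells. In NoDox 12 h cells these shares were 16.3% and 15.5%. SP8 averaged 46.3 ± 4.73 CPM in Dox 12 h, 157 ± 8.34 CPM in NoDox 12 h and 179 ± 3.52 CPM in Day 10 libraries (SD, n = 3 each). The fall of SP8 was -1.95 ± 0.07, and MEIS1, MEIS2 and ETV1, like SP8 transcription factors of LGE progenitors and their neurons, fell by 2.72, 1.56 and 2.08. The DLX homeobox genes, which act downstream of GSX2 in mice, did not move as 1 group. DLX5 and DLX6 fell by 2.28 ± 0.39 and 2.51 ± 0.33. DLX1 had 26.5, 18.7 and 16.8 CPM in Dox 12 h, 41.6, 26.5 and 29.4 CPM in NoDox 12 h and 34.7, 24.6 and 26.6 CPM in Day 10 libraries, and did not pass against Day 10 (-0.44 ± 0.24, adjusted p = 0.134). DLX2 likewise overlapped between groups (-0.32 ± 0.29, adjusted p = 0.397), as did TSHZ1 (0.03 ± 0.22, adjusted p = 0.928).

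Regulators of the dorsal pallium fell as a list, 19 of 21 tested with none higher and a median of -2.28, and the same 19 were losses against both references. TBR1, a T-box factor of early cortical neurons, averaged 3.05 CPM in Dox 12 h, 32.8 CPM in NoDox 12 h and 35.9 CPM in Day 10 libraries. NEUROG2, LHX9 and DMRTA2, which specify or pattern dorsal progenitors, fell by 3.60 (on 4 reads in the Dox 12 h libraries), 3.32 and 3.48. PAX6, which marks pallial progenitors and opposes GSX2 at the boundary in mice, had 45, 42.4 and 46.1 CPM in Dox 12 h, against 235, 220 and 246 CPM in NoDox 12 h and 224, 203 and 220 CPM in Day 10 libraries (-2.28 ± 0.07, adjusted p = 5.74e-21). EMX1 fell in both arms and averaged 0.712 CPM in Dox 12 h, 1.57 CPM in NoDox 12 h and 5.96 CPM in Day 10 libraries. Genes of the ventral pallium and its boundary fell in 9 of 12 tested (median -3.74) while 6 of the 12 rose in the control (median 0.54). RSPO3, a secreted enhancer of WNT signalling, averaged 0.395 CPM in Dox 12 h, 11.9 CPM in NoDox 12 h and 6.62 CPM in Day 10 libraries. FGF7 and FGF19, ligands of FGF receptors, were losses with 3 and 2 reads over the Dox 12 h libraries, against means of 0.844 and 1.49 CPM in NoDox 12 h and 0.864 and 0.473 CPM in Day 10 libraries.

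Falls were also found outside the pallium lists. Regulators of the anterior forebrain and eye field fell in 15 of 18 tested (median -1.38). FEZF1, a zinc finger repressor of the anterior forebrain, had 38, 41.1 and 42 CPM in Dox 12 h, against 460, 479 and 474 CPM in NoDox 12 h and 564, 540 and 535 CPM in Day 10 libraries (-3.76 ± 0.07, adjusted p = 5.41e-26). ZIC1, OTX2 and RAX fell by 1.98, 1.94 and 1.55, and HESX1 rose by 1.10 in a movement shared with the control. On the ventral side, NKX2-1, which specifies the medial ganglionic eminence, had 9 reads over the Dox 12 h libraries and averaged 0.129 CPM there, 1.72 CPM in NoDox 12 h and 1.21 CPM in Day 10 libraries. Of 12 tested genes of the medial eminence, ventral midline and Hedgehog pathway, 5 fell and 1 rose. Over all genes tested, 24% fell and 24.5% rose, 48.5% together. Among 21 genes of GABAergic and striatal neurons, 12 fell and BCL11B, a striatal zinc finger factor, rose by 0.47 (not called without Dox 12 h replicate 2). ISL1, a LIM homeobox factor of striatal neurons, and the non-coding DLX6-AS1 fell by 3.87 and 3.42 (DLX6-AS1 by 4.32 without Dox 12 h replicate 1), while GAD1, which makes GABA, was held at 6.53 CPM in Dox 12 h against 17.1 CPM in NoDox 12 h and 8.3 CPM in Day 10 libraries. NEUROD6 of the dorsal list, LHX6, GLI1, HHIP and FOXA2 of the ventral list and DRD1, TAC1 and NPY of the striatal list were among the members with too few reads to be tested.

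Genes of neural progenitors fell in 22 of 26 tested, with HES1 the 1 called rise (0.29), which was shared with the control and was not called without Day 10 replicate 2 or 3 or without Dox 12 h replicate 2 or 3. SOX2, which maintains neural progenitors, had 120, 133 and 153 CPM in Dox 12 h, against 824, 845 and 845 CPM in NoDox 12 h and 1081, 993 and 986 CPM in Day 10 libraries. SOX3, FABP7 and SOX9 fell by 2.49, 1.56 and 1.29. The intermediate filament gene NES averaged 976 CPM in Dox 12 h, 2009 CPM in NoDox 12 h and 1436 CPM in Day 10 libraries, so its distance to the control of the same hour was larger than its fall from Day 10 (-1.04 ± 0.07 and -0.56 ± 0.06). These are bulk samples, in which fewer cells of a type and less RNA per cell cannot be told apart. Genes that start neurogenesis fell in 28 of 31 tested, all 28 of them losses, while 10 of the 31 rose and 1 fell in NoDox 12 h cells. INSM1 and INSM2, zinc finger factors of newborn neurons, fell by 2.79 and 3.08, and SOX4 and SOX11 by 2.61 and 1.97. HES6 averaged 75.1 CPM in Dox 12 h, 331 CPM in NoDox 12 h and 198 CPM in Day 10 libraries. Of 29 genes of postmitotic neurons, 19 fell and SYN1 and MAPT, which encode a synaptic vesicle protein and tau, rose by 0.96 and 0.34. Only 1 of the 29 was called higher without Day 10 replicate 2 or 3 or without Dox 12 h replicate 1 or 2.

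Signalling genes fell more often than they rose in the Notch, FGF and WNT lists. In the Notch pathway 12 of 22 fell, among them the ligand genes DLL1 (-1.23) and JAG1 (-1.23) and the receptor gene NOTCH1 (-0.62), and 5 rose, among them the target gene HEY1 (1.16). In the FGF list 18 of 23 fell, including the ERK phosphatase genes DUSP4 (-2.41) and DUSP6, which averaged 7.13 CPM in Dox 12 h, 43.5 CPM in NoDox 12 h and 32.2 CPM in Day 10 libraries. FGFR2, a receptor gene, rose by 0.85. Of 33 WNT genes tested, 19 fell and 9 rose. FZD5, a WNT receptor gene of the anterior forebrain, had 41.2, 42.5 and 36 CPM in Dox 12 h, against 443, 657 and 606 CPM in NoDox 12 h and 397, 558 and 581 CPM in Day 10 libraries. The receptor genes FZD8 and LGR5 fell by 2.41 and 3.14, whereas the feedback inhibitor genes NKD1, NOTUM and AXIN2 rose by 1.27, 1.96 and 0.43. The BMP, TGF-beta and Nodal list differed, with 12 of 26 higher and 8 lower, but 11 of the 26 also rose in the control. Its falls included TGFB2 (-3.33), a ligand, and the BMP antagonists GREM1 (-2.63) and NOG (-1.87), and its rises included ID1 (1.41), a BMP target. Axon guidance genes fell in 25 of 33, with the repellent SLIT2 at 30.1, 31.2 and 24.2 CPM in Dox 12 h, 190, 224 and 233 CPM in NoDox 12 h and 144, 182 and 178 CPM in Day 10 libraries. Cadherins and protocadherins fell in 19 of 24, with PCDH10 and PCDH7 falling by 3.11 and 2.91 on the log2 scale. Of 12 retinoic acid genes 3 rose and 2 fell, beside 24.5% and 24% of all genes tested. Only 1 rose without Day 10 replicate 2 or without Dox 12 h replicate 3.

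**Figure D3:**
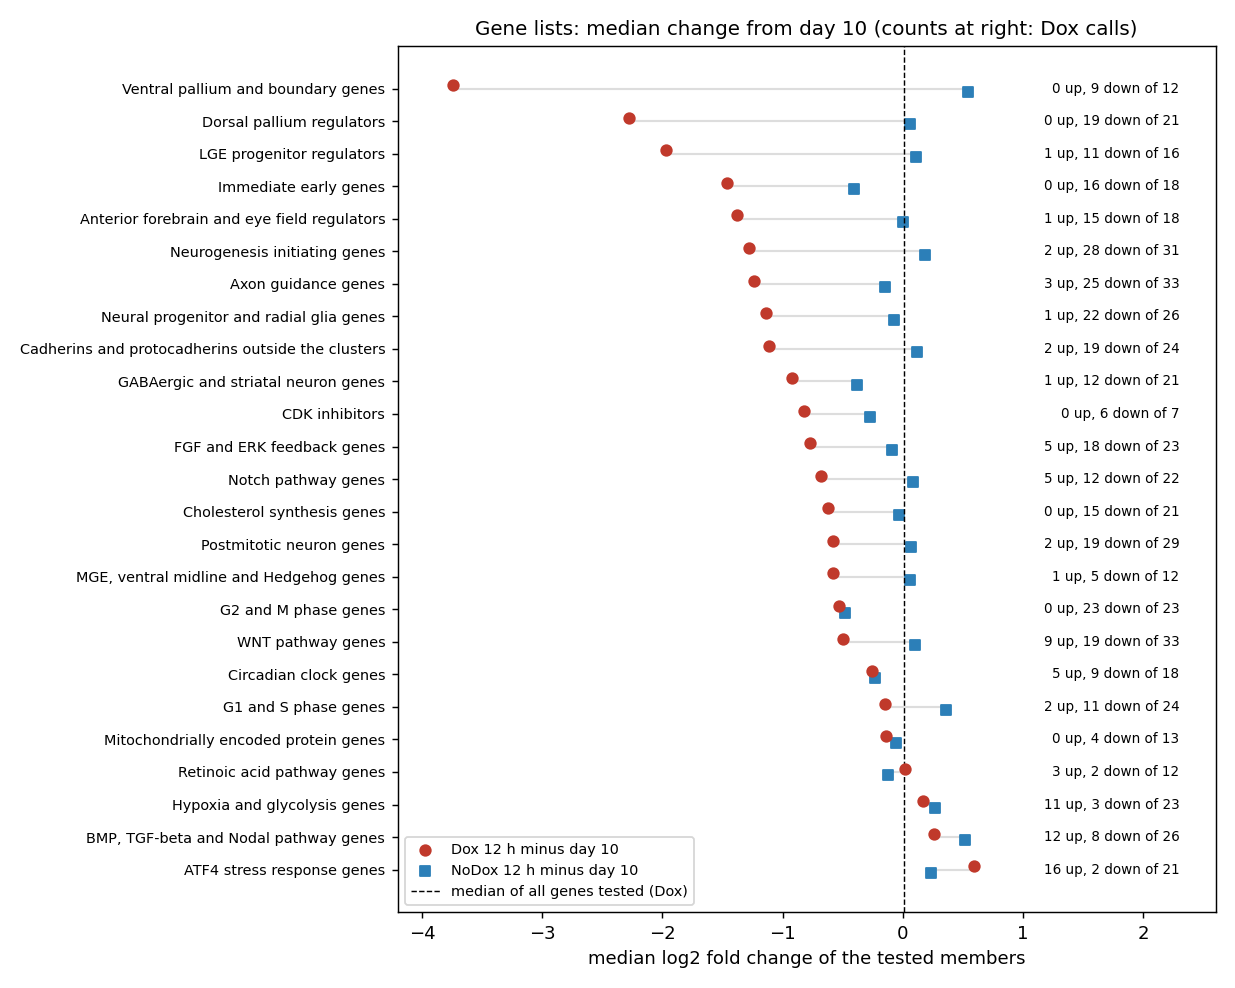
Median log2 fold change against Day 10 of the tested members of each gene list (horizontal axis) in Dox 12 h and in NoDox 12 h cells, with the members called in Dox 12 h cells counted at the right. The patterning and neurogenesis lists lie between -3.74 and -0.58 in Dox 12 h cells and between 0.00 and 0.54 in NoDox 12 h cells, while the G2 and M phase list lies at -0.53 and -0.48.

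The gains named by the rule were mostly genes of low level. SLC13A5, a plasma membrane citrate transporter, had 5.51, 5.35 and 4.74 CPM in Dox 12 h, against 1.32, 1.1 and 1.1 CPM in NoDox 12 h and 0.352, 0.704 and 0.663 CPM in Day 10 libraries (3.11 ± 0.23 against Day 10, adjusted p = 2.90e-12). LOXL4, a lysyl oxidase-like enzyme that cross-links matrix, had 27.7, 24.7 and 21.4 CPM in Dox 12 h, against 5.15, 5.35 and 5.28 CPM in NoDox 12 h and 5.64, 5.72 and 4.77 CPM in Day 10 libraries (2.20 ± 0.12, adjusted p = 2.61e-15). Both lay above the 6 other libraries, which the rule for naming gains required. SLC13A5 also rose in the control (0.96), and LOXL4 was not called there (-0.03). AQP3, a water and glycerol channel, had 7.4, 4.85 and 6.42 CPM in Dox 12 h, against 1.32, 0.731 and 0.791 CPM in NoDox 12 h and 0.775, 1.1 and 0.884 CPM in Day 10 libraries. CLDN19, a tight junction claudin, had 14.8, 15.6 and 12.3 CPM in Dox 12 h, against 2.96, 3.15 and 3.65 CPM in NoDox 12 h and 1.83, 2.95 and 2.87 CPM in Day 10 libraries. Their log2 rises were 2.73 ± 0.26 and 2.44 ± 0.15. CCDC69, whose promoter is printed above, had 14.1, 11.2 and 8.26 CPM in Dox 12 h, against 2.19, 2.33 and 1.01 CPM in NoDox 12 h and 1.76, 1.36 and 2.39 CPM in Day 10 libraries.

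Some of the largest rises against Day 10 were part of a movement that the control also made. CHD5, a chromatin remodeller of neurons, had 7.4, 7.43 and 6.83 CPM in Dox 12 h, against 4.08, 3.7 and 3.78 CPM in NoDox 12 h and 1.2, 1.5 and 0.84 CPM in Day 10 libraries. PTPRB, a receptor phosphatase of endothelium, had 14.2, 12.2 and 8.26 CPM in Dox 12 h, against 5.55, 7.08 and 5.85 CPM in NoDox 12 h and 1.83, 1.76 and 2.12 CPM in Day 10 libraries. Both rose by 2.61 in Dox 12 h cells, and by 1.71 and 1.69 in NoDox 12 h cells. WNT3A, a WNT ligand, rose further in the control than in the induced cells, with 4.04, 5.16 and 4.69 CPM in Dox 12 h, against 8.97, 10.3 and 8.62 CPM in NoDox 12 h and 0.634, 0.748 and 0.84 CPM in Day 10 libraries. NGEF, a guanine nucleotide exchange factor of neurons, rose by 2.42 ± 0.22 in Dox 12 h cells while the control fell by 0.97. ACSL1, a fatty acid-activating enzyme, RSPO4, a WNT enhancer, and CD300A, LDLRAD2 and HSPA12B rose by 2.20 to 2.96. Transcription factor genes were among the gains at low levels. BHLHE41, a clock-related repressor, averaged 3.08 CPM in Dox 12 h, 1.12 CPM in NoDox 12 h and 0.179 CPM in Day 10 libraries (4.05 ± 0.39). MIXL1, a mesendoderm homeobox gene, averaged 1.77 CPM in Dox 12 h, 0.296 CPM in NoDox 12 h and 0.276 CPM in Day 10 libraries, and LMX1B, a LIM homeobox gene, averaged 0.942 CPM in Dox 12 h, 0.125 CPM in NoDox 12 h and 0.126 CPM in Day 10 libraries.

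**Figure D4:**
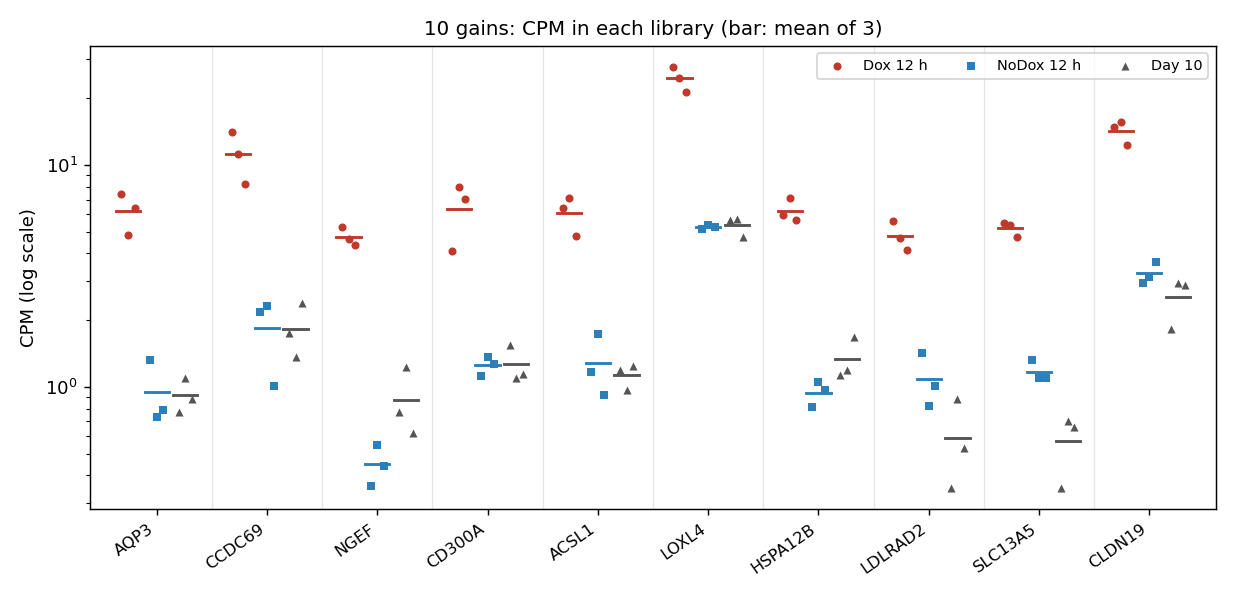
CPM in each library (vertical axis: log scale) of the 10 gains ranked in the same way, bars marking means of 3, with Dox 12 h, NoDox 12 h and Day 10 libraries side by side. For LOXL4 the Dox 12 h libraries lie between 21.4 and 27.7 CPM and all others at or below 5.72 CPM.

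Held genes separate a difference from the control from a change in the induced cells themselves. TAGLN, an actin-binding protein of smooth muscle, had 87.7, 134 and 129 CPM in Dox 12 h, against 273, 259 and 260 CPM in NoDox 12 h and 74.1, 93.5 and 97.5 CPM in Day 10 libraries. It rose by 1.57 in the control and did not pass against Day 10 in Dox 12 h cells (0.40 ± 0.19, adjusted p = 0.103). It did pass without Dox 12 h replicate 1 (0.56), with library totals alone (0.57), and with 3 groups only or the replicate block (0.39 in both). CAV1, the caveolin of plasma membrane caveolae, had 1.14, 1.81 and 1.53 CPM in Dox 12 h, against 8.1, 5.94 and 5.32 CPM in NoDox 12 h and 1.41, 1.72 and 2.25 CPM in Day 10 libraries. NOX4, an NADPH oxidase, had 4.65, 6.16 and 8.77 CPM in Dox 12 h, against 16.9, 19.1 and 16.1 CPM in NoDox 12 h and 4.58, 5.33 and 5.13 CPM in Day 10 libraries. TNC, the matrix protein tenascin C, and CD44, a hyaluronan receptor, were placed likewise, with control rises of 1.51 and 1.45. In these genes the Dox 12 h libraries overlapped Day 10 or lay close to it. The naming rule required NoDox 12 h libraries to lie above both.

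The reverse was seen for TESMIN, a metallothionein-like protein of the testis, which had 3.22, 3.66 and 3.92 CPM in Dox 12 h, against 0.306, 0.685 and 0.835 CPM in NoDox 12 h and 4.23, 4.01 and 4.07 CPM in Day 10 libraries. CACNA1G, a T-type calcium channel subunit, had 7.94, 10.7 and 9.38 CPM in Dox 12 h, against 3.46, 3.52 and 3.69 CPM in NoDox 12 h and 9.79, 9.25 and 9.99 CPM in Day 10 libraries. GABRA3, a GABA-A receptor subunit, had 8.48, 6.77 and 8.61 CPM in Dox 12 h, against 3.57, 3.15 and 3.34 CPM in NoDox 12 h and 10.6, 8.54 and 8.53 CPM in Day 10 libraries. Each of these channel and receptor genes fell only in the control by the tests here. The naming rule took held genes only where the absolute log2 fold change of Dox 12 h against Day 10 cells was below 0.5. The range of -0.43 to 0.40 over the 12 held genes was limited by that choice. No call is not evidence that a gene stayed at its starting level, and ZMYND10 passed as lower without Day 10 replicate 3 (-0.61) or without Dox 12 h replicate 3 (-0.59).

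Shared movements show what the 12 h brought with or without the drug. SH3RF3, an SH3 domain protein, had 8.55, 7.47 and 7.65 CPM in Dox 12 h, against 10.6, 7.22 and 9.1 CPM in NoDox 12 h and 0.845, 0.925 and 1.41 CPM in Day 10 libraries. HSPA8, a constitutive chaperone and one of the most abundant genes to rise, had 1764, 1551 and 1659 CPM in Dox 12 h, against 1786, 1692 and 1606 CPM in NoDox 12 h and 592, 576 and 554 CPM in Day 10 libraries. Its log2 fold changes were 1.53 in Dox 12 h and 1.56 in NoDox 12 h cells against Day 10, with -0.03 between them. Further shared rises were STS (steroid sulfatase, 1.92 and 1.95), LEFTY1 (a Nodal antagonist, 3.81 and 3.94, the first of which was 3.17 without Day 10 replicate 2 and 4.57 without Day 10 replicate 3) and CER1 (an antagonist of BMP and Nodal, 2.66 and 2.71). CDKN2C, an inhibitor of CDK4 and CDK6, fell in both arms, to 1.22, 1.31 and 0.968 CPM in Dox 12 h and 1.48, 1.1 and 1.67 CPM in NoDox 12 h, against 8.67, 6.78 and 5.57 CPM in Day 10 libraries. TEF, a clock output factor, fell in the same way by 1.61 in Dox 12 h cells and 1.58 in NoDox 12 h cells. Had these genes been read against Day 10 alone, they would have stood among the changes of the induced cells.

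**Figure D5:**
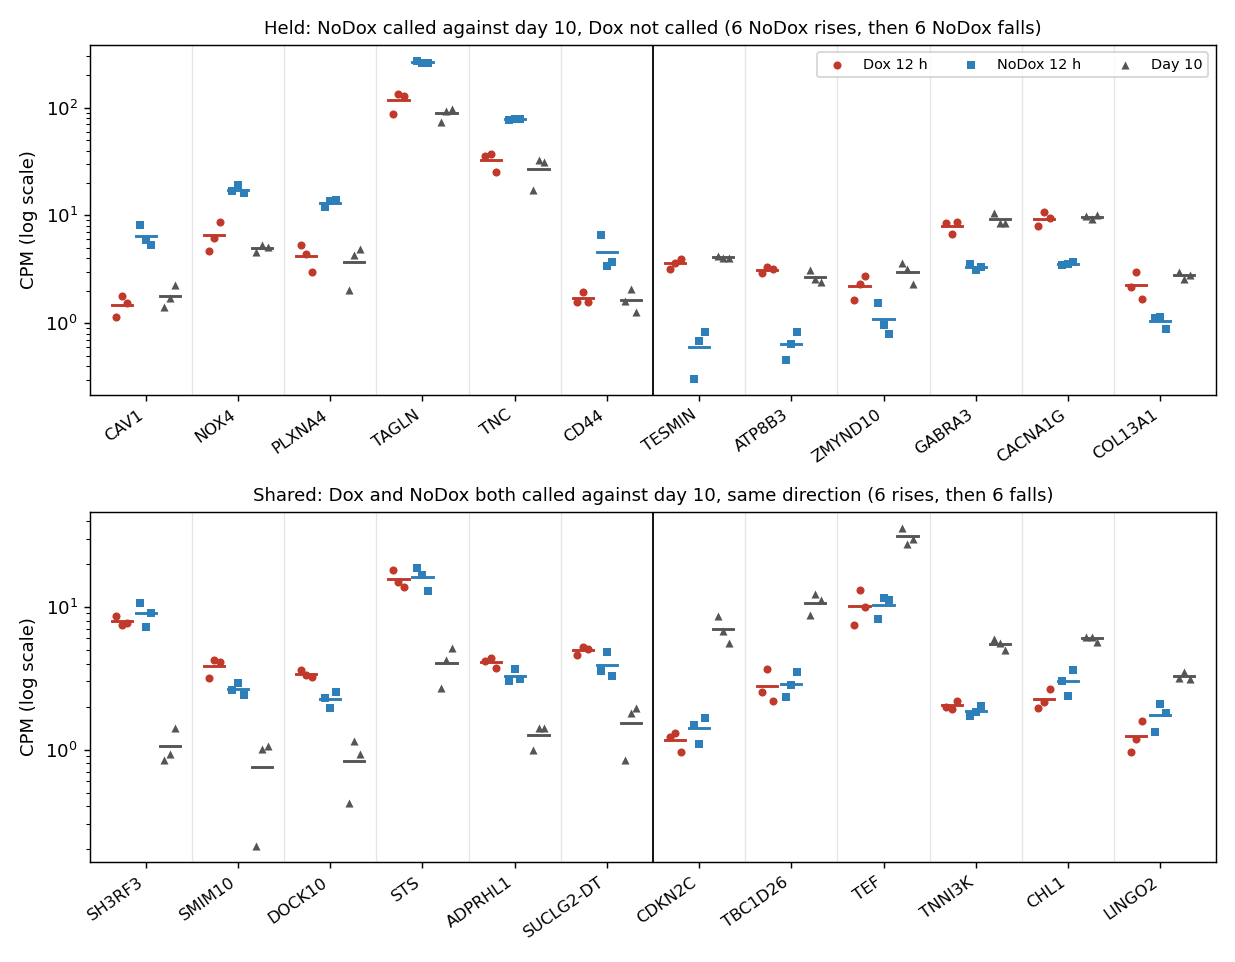
CPM in each library (vertical axis: log scale) of 12 held genes and 12 genes with a shared movement, bars marking means of 3, with Dox 12 h, NoDox 12 h and Day 10 libraries side by side. TESMIN stands at 3.22 to 3.92 CPM in Dox 12 h libraries and at 0.306 to 0.835 CPM in NoDox 12 h libraries, and SH3RF3 stands at 7.47 to 8.55 CPM in Dox 12 h, 7.22 to 10.6 CPM in NoDox 12 h and 0.845 to 1.41 CPM in Day 10 libraries.

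The cell cycle lists divided by phase. G2 and M phase genes fell in 23 of 23 tested in Dox 12 h cells and in 20 of 23 in NoDox 12 h cells (medians -0.53 and -0.48), and 17 were shared falls. TOP2A, the topoisomerase of mitotic chromosomes, had 523, 594 and 670 CPM in Dox 12 h, against 563, 660 and 667 CPM in NoDox 12 h and 1008, 933 and 950 CPM in Day 10 libraries. G1 and S phase genes rose in 18 of 24 in the control, whereas in Dox 12 h cells 11 fell and 2 rose (1 rose without Dox 12 h replicate 3). With library totals alone the Dox 12 h median of this list changed sign, at 0.03 against -0.15, with 7 lower and 5 higher. MCM4, a replication helicase subunit, was held at 128 CPM in Dox 12 h against 204 CPM in NoDox 12 h and 143 CPM in Day 10 libraries, and the cyclin gene CCND1 was held at 184 CPM in Dox 12 h against 277 CPM in NoDox 12 h and 187 CPM in Day 10 libraries. The CDK inhibitor CDKN1C fell to 126 CPM in Dox 12 h, against 360 CPM in NoDox 12 h and 346 CPM in Day 10 libraries.

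Immediate early genes fell in 16 of 18 tested, all of them losses, and in 9 of 18 in the control. FOS had 11.9, 22.5 and 23.9 CPM in Dox 12 h, against 44.7, 57 and 71.7 CPM in NoDox 12 h and 85, 88.8 and 80.7 CPM in Day 10 libraries. EGR1 had 25.5, 42 and 42.3 CPM in Dox 12 h, against 47.2, 60 and 72.4 CPM in NoDox 12 h and 112, 134 and 127 CPM in Day 10 libraries. Both fell in both arms and lay lowest in Dox 12 h cells. Cholesterol synthesis genes fell in 15 of 21 (median -0.62), 13 of them losses, with HMGCS1, an early enzyme of the pathway, at 452, 470 and 474 CPM in Dox 12 h, against 1131, 1135 and 1110 CPM in NoDox 12 h and 1123, 1165 and 1155 CPM in Day 10 libraries. Targets of ATF4, a factor of the amino acid and protein folding stress response, rose in 16 of 21 (median 0.59), of which 11 were gains, and 11 rose in the control. CHAC1, a glutathione-degrading enzyme, had 11.4, 14.4 and 12.2 CPM in Dox 12 h, against 5.81, 5.16 and 5.45 CPM in NoDox 12 h and 4.51, 4.71 and 4.77 CPM in Day 10 libraries. The listed members ATF3 and DDIT4 went the other way, with log2 fold changes of -0.89 and -0.66.

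Hypoxia and glycolysis genes rose in 11 of 23 and fell in 3 against Day 10, while 12 rose and 1 fell in the control. Of all genes tested, 24.5% rose and 24% fell in Dox 12 h cells. The number that rose was 7, 5 and 6 without Day 10 replicate 2, Day 10 replicate 3 and Dox 12 h replicate 2. Set directly against NoDox 12 h cells, 3 of the 23 were higher and 10 were lower in Dox 12 h cells. In that comparison 19.8% of all genes tested were higher and 19.9% lower. SLC2A1, the GLUT1 glucose transporter, was held at 1030, 998 and 848 CPM in Dox 12 h, against 1615, 1825 and 1941 CPM in NoDox 12 h and 987, 1042 and 1029 CPM in Day 10 libraries. Of 13 mitochondrially encoded protein genes 4 fell, all 4 shared with the control, and 7 fell without Dox 12 h replicate 1 and 9 without Dox 12 h replicate 3 and Day 10 replicate 1 together. With library totals alone 3 of them fell and 2 rose. Circadian clock genes fell in 9 of 18 and rose in 5, against 8 and 3 in the control, and RORB, an orphan nuclear receptor, fell by 2.50.

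Among the most abundant transcripts, DLK1, a paternally expressed Notch ligand homologue, had 3382, 3974 and 4561 CPM in Dox 12 h, against 6316, 7154 and 7305 CPM in NoDox 12 h and 8005, 8478 and 7894 CPM in Day 10 libraries. NNAT, an imprinted gene of neural tissue, had 629, 628 and 821 CPM in Dox 12 h, against 2121, 2045 and 1919 CPM in NoDox 12 h and 3164, 2670 and 2541 CPM in Day 10 libraries. COL2A1, a fibrillar collagen, had 1576, 1720 and 1574 CPM in Dox 12 h, against 2179, 2442 and 2385 CPM in NoDox 12 h and 2747, 2838 and 2736 CPM in Day 10 libraries. These 3 were losses in which the control had also begun to fall. The chaperone genes HSP90AA1 and DNAJA1 rose by 0.82 and 1.16 in Dox 12 h cells and by 0.76 and 1.00 in NoDox 12 h cells.

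Markers of other cell types differed between the groups in several lists, and their part in the results above was not tested. Counts of members called here are against Day 10, where 24.5% of all genes tested were higher and 24% lower. The 10 pluripotency markers summed to 209 to 231 CPM in Dox 12 h, 318 to 342 CPM in NoDox 12 h and 318 to 339 CPM in Day 10 libraries. Mesoderm and endoderm markers summed to 7.03 to 8.22 CPM in Dox 12 h, 63.3 to 87.7 CPM in NoDox 12 h and 77.7 to 87.3 CPM in Day 10 libraries, most of it EOMES in the NoDox 12 h and Day 10 libraries, with SOX17 and FOXA2 at 0 in all 9. Neural crest markers summed to 363 to 426 CPM in Dox 12 h, 804 to 850 CPM in NoDox 12 h and 882 to 914 CPM in Day 10 libraries, with 3 of 6 tested higher and 3 lower. Epithelial markers were higher in 5 of 8 tested and summed to 440 to 545 CPM in Dox 12 h, 450 to 492 CPM in NoDox 12 h and 374 to 422 CPM in Day 10 libraries. Against NoDox 12 h cells, 1 of the 8 was higher and 2 were lower in Dox 12 h cells. Mesenchymal and endothelial markers summed to 921 to 1299 CPM in Dox 12 h, 1378 to 1536 CPM in NoDox 12 h and 1302 to 1479 CPM in Day 10 libraries, with 3 of 10 higher and 4 lower. Roof plate, choroid plexus and cortical hem markers, 2 of 10 higher and 3 lower, summed to 86.7 to 97.1 CPM in Dox 12 h, 301 to 335 CPM in NoDox 12 h and 285 to 308 CPM in Day 10 libraries. Markers of midbrain and hindbrain fell in 5 of 6 and summed to 13.9 to 15.4 CPM in Dox 12 h, 20.2 to 24.4 CPM in NoDox 12 h and 23.6 to 26.8 CPM in Day 10 libraries. Glial markers summed to 50.7 to 59 CPM in Dox 12 h, 42.5 to 46.6 CPM in NoDox 12 h and 43.9 to 51.4 CPM in Day 10 libraries. Of 9 tested, 5 glial markers fell (3 without Day 10 replicate 1), and 2 rose. GFAP, an astrocyte filament gene, and CSPG4, a proteoglycan of oligodendrocyte precursors, rose by 2.78 ± 0.34 and 1.68 ± 0.12.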

How the data were processed

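RNA was extracted after mirVana lysis, selected for polyA and made into libraries with a directional kit, per the labels' protocols. The submitters' processing notes name STAR 2.7.9, Subread 2.0.3, DESeq2 and hg38. Annotation and strand setting are not given in these notes or the labels. The authors deposited raw read counts per feature, and a table of normalized values, that is, counts divided by size factors (a signal scale), which was used in 1 alternative. Counts were analysed with edgeR 4.0.16 (R 4.3.3): TMM scaling, filtering of low counts by group, and the robust quasi-likelihood F test in 1 fit of all 21 libraries in 7 groups (14 residual degrees of freedom), with Benjamini-Hochberg adjustment over 19655 features. CPM used TMM-scaled totals, which were 14439089 to 33842591 reads before scaling over the series. A floor of 3 counts corresponds to 0.122 to 0.208 CPM in a library, before TMM scaling, over the 9 libraries of the 3 groups. It covers counting error only.

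The gene lists, classes and members were chosen with earlier results of these data known. No p-value is given over a list. Genes ranked for naming needed a mean of 2 CPM over 9 libraries and, in the comparisons that define their class, libraries wholly apart. Held genes also needed an absolute log2 fold change of Dox 12 h against Day 10 below 0.5. The ranked genes were the 12 largest falls and 12 largest rises, and the 10 losses and 10 gains with the largest smaller change. Also ranked were 6 held genes and 6 shared movements in each direction. The 5 falls and 5 rises with the largest difference in mean CPM between Dox 12 h and Day 10 were added. Up to 4 members of each list were named at any level. Other genes were named after their values were seen, and some genes are not reported here. Alternatives were DESeq2 1.42.0 (size factors, Wald test), limma 3.58.1 on log2 of the deposited normalized values plus a pseudocount of 1, library totals, no filter, 3 groups only, a replicate block, testing for a change above 2-fold, and leaving out each library. In simulated counts at this design, the Dox 12 h against Day 10 test recovered 88% of genes changed by log2 1. The simulation changed 100 genes by log2 1 and 100 by log2 2 among 19183, far fewer than were called in the data. Genes at the lowest levels were not among those changed, and outlying libraries were not simulated. The 88% may therefore not hold for these data.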

Additional observations from a re-analysis of the deposited data

Results flagged for a closer look

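Dox 12 h and NoDox 12 h cells moved in opposite directions from Day 10 in 27 losses and 10 gains, by at least 2-fold and past the threshold in each arm and in the test of the difference between the arms (edgeR quasi-likelihood test, adjusted p below 0.05). The 13 of these with a mean of at least 2 CPM over the 9 libraries and a gene symbol that is not clone-style are given here. Below, the difference is the log2 fold change of Dox 12 h against NoDox 12 h cells, and the level of each group is its mean CPM.

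Among neuronal genes, NEUROG1 differed by -5.46, with 0.465 CPM in Dox 12 h, 21.7 CPM in NoDox 12 h and 10.6 CPM in Day 10 cells. NEUROD4, a later proneural factor, differed by -2.96, with 1.94 CPM in Dox 12 h, 15.1 CPM in NoDox 12 h and 5.29 CPM in Day 10 cells. NTRK2, the receptor of brain-derived neurotrophic factor, differed by -2.18.

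Among adhesion, matrix and secreted factors, PCDH8 differed by -5.93 on 8 reads in the Dox 12 h libraries. COL8A1, a short-chain collagen, differed by -4.10, with 0.436 CPM in Dox 12 h, 7.82 CPM in NoDox 12 h and 3.79 CPM in Day 10 cells. CDH6, a cadherin, differed by -2.13 and GASK1B by -2.71. WNT1, a ligand of the dorsal midline, differed by -3.83, with 0.456 CPM in Dox 12 h, 6.27 CPM in NoDox 12 h and 1.85 CPM in Day 10 cells.

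CDKN2B, an inhibitor of CDK4 and CDK6, differed by -3.17, with 1.67 CPM in Dox 12 h, 15.2 CPM in NoDox 12 h and 4.31 CPM in Day 10 cells. ANKRD1, a target of YAP, differed by -2.17. ANO1, a calcium-activated chloride channel, differed by -2.97, and its Dox 12 h libraries (1.32, 1.19 and 0.459 CPM) overlapped Day 10 (1.06, 2.82 and 2.12 CPM).

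In 2 genes the induced cells were higher. ALS2CL differed by 2.97, with 6.76 CPM in Dox 12 h, 0.861 CPM in NoDox 12 h and 2.33 CPM in Day 10 cells, and SPTB, a spectrin, differed by 2.50.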

How the results depend on the processing

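No gene called between Dox 12 h and Day 10 cells reversed under any setting. With library totals alone, 7707 genes were higher and 2850 lower in Dox 12 h than in Day 10 cells, and 7340 higher and 2213 lower than in NoDox 12 h cells. Losses were then 1517, gains 5169, genes held against a control rise 330 and shared falls 783. Partial rises and falls were 114 and 159, losses with a control rise 207 and gains with a control fall 563. A fit of the 3 groups only gave 123 partial rises, 55 partial falls and 190 gains with a control fall. Correlations of same-numbered libraries' deviations were -0.373, 0.174 and -0.423 between Dox 12 h and Day 10, 0.19, 0.0454 and 0.139 between NoDox 12 h and Day 10, and 0.113, 0.0729 and -0.052 between Dox 12 h and NoDox 12 h. In no comparison did all 3 exceed 0.1, so the libraries are treated as sharing only a number. The replicate block was fitted on the 3 groups only. With it, Dox 12 h against Day 10 gave 3746 higher and 3766 lower, and NoDox 12 h against Day 10 gave 2031 and 1906. The 3 groups without the block gave 4086 and 4091, and 2408 and 2317. Under the block, genes held against a control fall were 440, shared falls 736, partial rises and falls 109 and 47, losses with a control rise 184 and gains with a control fall 152. The test for a change above 2-fold gave 304 higher and 496 lower for Dox 12 h against Day 10, 33 and 9 for NoDox 12 h against Day 10, and 289 and 461 for Dox 12 h against NoDox 12 h. It left 352 losses, 125 gains, 7 and 3 held genes, 15 shared rises and 5 shared falls, and 0 in the partial and opposite classes.

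Leaving out each library gave 4059 to 4797 higher and 4212 to 4767 lower against Day 10, 2416 to 2750 losses and 2054 to 2498 gains. Gains with a control fall ran from 181 (without Day 10 replicate 2) to 326, partial rises from 125 to 188 and partial falls from 61 to 103, both lowest without Dox 12 h replicate 2. Held genes, not called against Day 10, changed sign: CACNA1G reached 0.13 with library totals and -0.18 to 0.05 over the left-out libraries, PLXNA4 -0.09 to 0.36 and CD44 -0.14 to 0.26. Leaving out Dox 12 h replicate 3 and Day 10 replicate 1 together was chosen after seeing the data. The cause of these differences was not tested. With 3 libraries a group, exact permutation of 1 gene's values cannot go below p = 0.1, and depth limits genes near the floor of 3 counts.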
